A study of Mus musculus with 10 samples.

Results

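Elastic fibre assembly genes were examined in lung RNA of newborn mice kept in high oxygen, a treatment used to model bronchopulmonary dysplasia (BPD), a lung disorder of preterm infants. The genes were 10 chosen by their role: Eln, Fbn1, Fbn2, Fbln5, Emilin1, Mfap2, Mfap4, Mfap5, Lox and Loxl1. Of these, 9 had a probe set annotated with that symbol alone, and all 9 were among the 14988 of 18193 genes kept by the filter on low values. Fbn1 was not analysed here. A gene was represented by its brightest probe set over the 10 arrays, called the lead probe set, and its other probe sets served as a check.

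The animals were pups of the ICR strain, pooled within 12 h of birth and allotted to oxygen or room air, with nursing dams exchanged between the exposures every 24 h. The hyperoxia groups breathed 80% oxygen until postnatal day 14 (P14; 3 arrays) or day 29 (P29; 3 arrays), and the room-air groups, labelled WT, were of the same 2 ages (2 arrays each). Both hyperoxia groups are labelled BPD. Whole dissected lungs, washed in saline, gave the RNA, and no genetic change is named for any group. The labels do not say whether an array held 1 animal. A p-value therefore sets a difference only against the spread between these samples, and that spread may be technical. With 2 or 3 arrays a group, precision is limited throughout.

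An elastic fibre is built on a scaffold of fibrillin microfibrils, onto which soluble tropoelastin, the product of Eln, is deposited and then cross-linked through its lysines. Fibulin-5, EMILIN-1 and the microfibril-associated proteins sit on the scaffold or at its boundary with elastin, and the lysyl oxidases make the cross-links. In the lung the fibres are laid down mainly while the alveoli form, at the tips of the growing septa, and tropoelastin expression is known to decline once that phase ends. All values below are log2 expression values of a probe set. A difference of 1 is therefore a doubling, and levels of different genes cannot be set against each other. In RNA of whole lung, fewer cells that make a transcript and less of it per cell cannot be told apart.

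Arrays of the same group correlated at 0.993 to 0.996 across genes and those of different groups at 0.935 to 0.983. The difference between the 3' and 5' actin control probe sets, which grows where RNA is degraded or incompletely copied, was 1.33 to 2.21 in P14 hyperoxia, 0.32 to 0.54 in P14 room air, 1.72 to 1.86 in P29 hyperoxia and 0.52 to 0.74 in P29 room air (6 against 4 arrays: exact permutation test, two-sided, p = 0.00476, the same after adjustment over the actin and Gapdh controls). Sex-linked transcripts differed too. All P14 arrays carried Y-linked transcripts with low Xist, both P29 room-air arrays had the female pattern, and the 3 P29 hyperoxia arrays were male, female and mixed. Of the 9 lung markers measured, such as surfactant protein C (Sftpc, 14.71 to 14.86 in group means), all passed the filter on low values.

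On the lead probe sets, elastic fibre genes that passed the test under hyperoxia were lower at P14 and, except for Mfap2, higher at P29. At P14, 4 of 9 genes fell (Mfap2, Emilin1, Mfap4 and Loxl1) and 0 rose, against 22.8% of all genes tested that were lower and 32.3% that were higher. At P29, 5 of 9 rose (Eln, Mfap5, Loxl1, Fbln5 and Lox) and 1 fell (Mfap2), against 34.2% higher and 25.6% lower among all genes. The median difference over the 9 genes was 0.64 at P29 and -0.36 at P14, beside a median of 0.04 over all genes at both ages. The effect of hyperoxia at P29 was above that at P14 for 7 of 9 genes and below it for 0, against 11.0% and 11.6% of all genes. After scaling to each array's 75th percentile, 45.0% of all calls were higher at P14 and 41.2% at P29, where the values as deposited gave 58.6% and 57.2%. All calls are limma's moderated test over 14988 genes with a Benjamini-Hochberg adjusted p under 0.05.

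**Figure D1:**
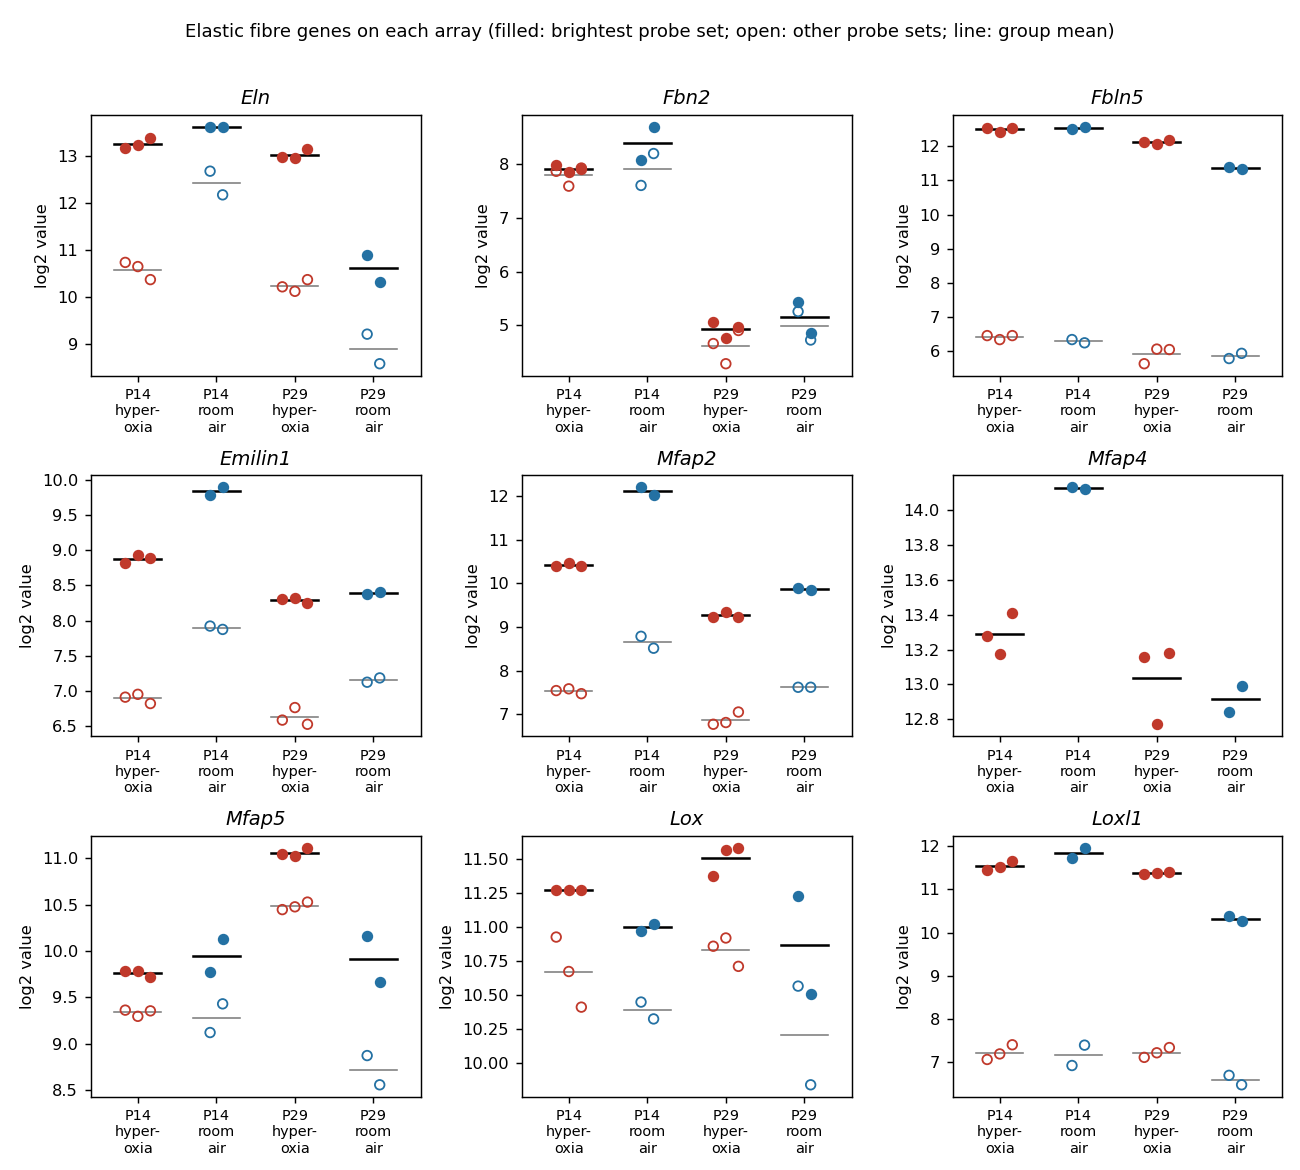
Log2 values of the 9 measured elastic fibre genes on each of the 10 arrays, by group. Filled points are the lead probe set, open points the other probe sets that passed the filter, and lines the group means. Eln lead values lie between 12.96 and 13.64 in 3 of the groups and at 10.32 and 10.90 in P29 room air.

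Elastin, the core of the fibre, had the largest P29 difference of the group on the lead probe sets, while on the other probe sets that of Mfap5 was larger (1.77, against 1.35 for Eln). The lead probe set of Eln read 13.19, 13.24 and 13.39 in P14 hyperoxia, against 13.64 and 13.62 in P14 room air. The hyperoxia arrays were all lower, by a small margin, and the difference of -0.36 ± 0.14 (SE) missed the threshold (limma adjusted p = 0.052). It was called after 75th-percentile scaling (-0.46, 0.022), with an intensity trend and robust fit (0.0437) and in the fit of the P14 groups alone (0.0117). That last fit, and leaving out either P29 room-air array, kept the difference at -0.36 and changed only the estimate of the spread. It was not called after quantile normalization, with array weights or with the actin term. In P29 hyperoxia it read 12.99, 12.96 and 13.16, against 10.90 and 10.32 in P29 room air. Here every hyperoxia array lay above both room-air arrays, and the level was 5.37-fold higher (2.43 ± 0.14, adjusted p = 4.14e-07).

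The other probe set of Eln gave the same order of groups at P29 but a different size at P14. It read 10.74, 10.65 and 10.37 in P14 hyperoxia, against 12.69 and 12.18 in P14 room air, a fall of 1.85 ± 0.20 (adjusted p = 6.38e-05 in a fit of all probe sets). In P29 hyperoxia it read 10.21, 10.12 and 10.37, against 9.20 and 8.57 in P29 room air, a rise of 1.35 ± 0.20 (adjusted p = 0.000279). The lead therefore exceeded the other probe set by 2.45 to 3.02 in P14 hyperoxia and 0.95 to 1.44 in P14 room air, and by 2.78 to 2.84 in P29 hyperoxia and 1.69 to 1.75 in P29 room air. The actin 3' minus 5' difference separated the same arrays, and its part in this gap was not tested. The age dependence was shared by both probe sets: the P29 effect exceeded the P14 effect by 2.78 ± 0.20 on the lead and by 3.19 ± 0.28 on the other (adjusted p = 1.16e-05 and 8.82e-05, the second in the fit of all probe sets).

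The microfibril scaffold did not move as a block. Fbn2, fibrillin-2, is a scaffold protein expressed mainly before and around birth. It read 7.99, 7.86 and 7.90 in P14 hyperoxia, against 8.08 and 8.70 in P14 room air, and 5.06, 4.77 and 4.97 in P29 hyperoxia, against 5.44 and 4.86 in P29 room air. Neither hyperoxia difference was called (-0.47 ± 0.19 at P14, adjusted p = 0.051, and -0.21 ± 0.19 at P29, adjusted p = 0.345). The P14 difference was called under quantile (adjusted p = 0.0216) or 75th-percentile scaling (0.021). It was -0.78 without P14 room air replicate 1 and -0.17 without P14 room air replicate 2. Leaving out either P29 room-air array did not change it and altered only the estimate of the spread. The P29 difference was 0.08 without P29 room air replicate 1 and -0.50 without its replicate 2, and the effects at the ages differed by 0.26 ± 0.27 (adjusted p = 0.536).

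Mfap2 and Mfap5 encode MAGP-1 and MAGP-2, a pair of small related glycoproteins that bind fibrillin, and they differed in direction at P29. Mfap2 read 10.39, 10.46 and 10.39 in P14 hyperoxia, against 12.21 and 12.04 in P14 room air, and was 3.26-fold lower (-1.70 ± 0.08, adjusted p = 1.95e-07). In P29 hyperoxia it read 9.24, 9.34 and 9.24, against 9.90 and 9.84 in P29 room air, a fall of 0.60 ± 0.08 (adjusted p = 0.000101). The arrays did not overlap at either age, and on the lead probe sets as deposited Mfap2 was the 1 member called lower at both ages. With the actin term its P29 difference was not called (-0.52, adjusted p = 0.0633).

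Mfap5 read 9.78, 9.78 and 9.72 in P14 hyperoxia, against 9.77 and 10.13 in P14 room air, with overlapping arrays (-0.19 ± 0.14, adjusted p = 0.260). In P29 hyperoxia it read 11.04, 11.03 and 11.12, against 10.16 and 9.67 in P29 room air, and was 2.21-fold higher (adjusted p = 4.28e-05). The P29 hyperoxia arrays held the highest Mfap5 values of the series, above those of all other arrays. Its other probe set rose by 1.77 ± 0.12 at P29.

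Among transcripts of proteins at the boundary of scaffold and elastin, Emilin1 and Mfap4 fell at P14 and Fbln5 rose at P29. Emilin1, which encodes a glycoprotein found where elastin meets microfibrils, read 8.82, 8.93 and 8.89 in P14 hyperoxia, against 9.78 and 9.90 in P14 room air, and was 1.95-fold lower (-0.96 ± 0.08, adjusted p = 5.41e-06). At P29 it read 8.31, 8.32 and 8.25 in hyperoxia, against 8.38 and 8.40 in room air. These arrays did not overlap, but the difference of -0.10 ± 0.08 was not called (adjusted p = 0.290). It was called with the mean of its probe sets (-0.31, adjusted p = 0.00334), quantile normalization (-0.23, adjusted p = 0.0152) and 75th-percentile scaling (-0.23, adjusted p = 0.0168). Its other probe set was 2.01-fold lower at P14 and fell by 0.53 ± 0.09 at P29 (adjusted p = 2.72e-05 and 0.000766).

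Mfap4, a microfibril-associated protein that binds tropoelastin and collagen, had 1 probe set. It read 13.28, 13.17 and 13.41 in P14 hyperoxia, against 14.13 and 14.12 in P14 room air, a fall of 0.84 ± 0.12 (adjusted p = 0.000243). At P29 it read 13.16, 12.77 and 13.18 in hyperoxia, against 12.84 and 12.99 in room air, and the arrays overlapped (0.12 ± 0.12, adjusted p = 0.426). The sign of that P29 difference was negative after scaling to the 75th percentile (-0.01) and with the actin (-0.09) or Y-linked term (-0.10).

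Fbln5 encodes fibulin-5, which binds tropoelastin and integrins and guides elastin onto microfibrils. It read 12.55, 12.43 and 12.53 in P14 hyperoxia, against 12.50 and 12.58 in P14 room air, with overlapping arrays (-0.04 ± 0.08, adjusted p = 0.695). At P29 it read 12.13, 12.08 and 12.19 in hyperoxia, against 11.39 and 11.32 in room air, and was 1.71-fold higher (0.78 ± 0.08, adjusted p = 1.20e-05). The dimmer probe set, at 5.63 to 6.06 in P29 hyperoxia and 5.78 to 5.93 in P29 room air, did not show this rise (0.05 ± 0.13).

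Promoter windows of 3 measured members were taken from the RefSeq table of build GRCm38.p6, and those of other members are not reported here. For each, 1 window is shown, and a link between its motifs and the hyperoxia differences was not tested. Each line gives the 250 bases before an annotated start, 5′ to 3′ on the gene's strand, with matches to the searched motifs in capitals. The windows are Mfap2 at chr4:141010431-141010680 (plus strand), Emilin1 at chr5:30913536-30913785 (plus strand) and Fbln5 at chr12:101819120-101819369 (minus strand).
Mfap2: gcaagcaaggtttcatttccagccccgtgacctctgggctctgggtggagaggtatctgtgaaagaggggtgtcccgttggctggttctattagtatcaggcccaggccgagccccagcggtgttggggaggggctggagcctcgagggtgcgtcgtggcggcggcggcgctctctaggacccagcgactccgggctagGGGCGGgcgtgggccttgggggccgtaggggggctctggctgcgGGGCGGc
Emilin1: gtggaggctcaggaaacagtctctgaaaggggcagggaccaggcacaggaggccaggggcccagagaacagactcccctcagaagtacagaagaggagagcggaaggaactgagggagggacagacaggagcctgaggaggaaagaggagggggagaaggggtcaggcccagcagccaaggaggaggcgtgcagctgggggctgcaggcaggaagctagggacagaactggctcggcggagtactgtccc
Fbln5: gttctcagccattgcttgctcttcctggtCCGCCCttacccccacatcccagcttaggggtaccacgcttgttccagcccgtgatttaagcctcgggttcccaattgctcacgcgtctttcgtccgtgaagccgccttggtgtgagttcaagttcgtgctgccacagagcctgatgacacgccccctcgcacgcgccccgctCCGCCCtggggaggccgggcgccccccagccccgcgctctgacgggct
The motifs were the GC box (GGGCGG), the TATA box (TATAAA) and the AP-1 site (TGANTCA), searched on both strands. The Mfap2 and Fbln5 windows each held 2 GC-box matches, a motif present in 32.7% of 32851 promoter windows of this length, and the Emilin1 window held 0. None of the 3 windows held the TATA or AP-1 letters, which occurred in 12.4% and 6.75% of all windows. A second annotated start of Mfap2 and of Fbln5 had 0 matches to any of the 3 motifs. G and C made up 68.8% of the Mfap2 window, 63.2% of that of Emilin1 and 65.2% of that of Fbln5, beside a median of 52.4%. At the second annotated start the share was 51.2% for Mfap2 and 49.6% for Fbln5, both below that median.

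Transcripts of both cross-linking enzymes were higher at P29. Lysyl oxidase, Lox, oxidises the lysines of tropoelastin and collagen. It read 11.27 on all 3 P14 hyperoxia arrays, against 10.97 and 11.02 in P14 room air, a difference of 0.28 ± 0.16 that was not called (adjusted p = 0.163). In a fit of the P14 groups alone it was called (adjusted p = 0.021). That fit, and leaving out either P29 room-air array, kept the difference at 0.28 and changed only the estimate of the spread. At P29 it read 11.37, 11.56 and 11.58 in hyperoxia, against 11.22 and 10.51 in room air, a rise of 0.64 ± 0.16 (adjusted p = 0.00548). Without P29 room air replicate 2 that difference was 0.28 (adjusted p = 0.0519), and the effects at the ages, which differed by 0.36 ± 0.23 (adjusted p = 0.291), were called different without P29 room air replicate 1 (0.72, adjusted p = 0.00597).

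Loxl1, the lysyl oxidase-like enzyme that binds fibulin-5 and is needed to maintain elastic fibres in adult mice, read 11.46, 11.51 and 11.67 in P14 hyperoxia, against 11.73 and 11.97 in P14 room air. The fall of 0.30 ± 0.10 (adjusted p = 0.0194) ended without P14 room air replicate 2 (-0.19, adjusted p = 0.169), without P14 hyperoxia replicate 1 (-0.26, adjusted p = 0.0636) or without its replicate 2 (-0.29, adjusted p = 0.0538). Its other probe set gave 0.06 ± 0.15. At P29 Loxl1 read 11.36, 11.37 and 11.41 in hyperoxia, against 10.39 and 10.26 in room air, and was 2.08-fold higher (adjusted p = 6.29e-06). The other probe set rose by 0.64 ± 0.15.

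**Figure D2:**
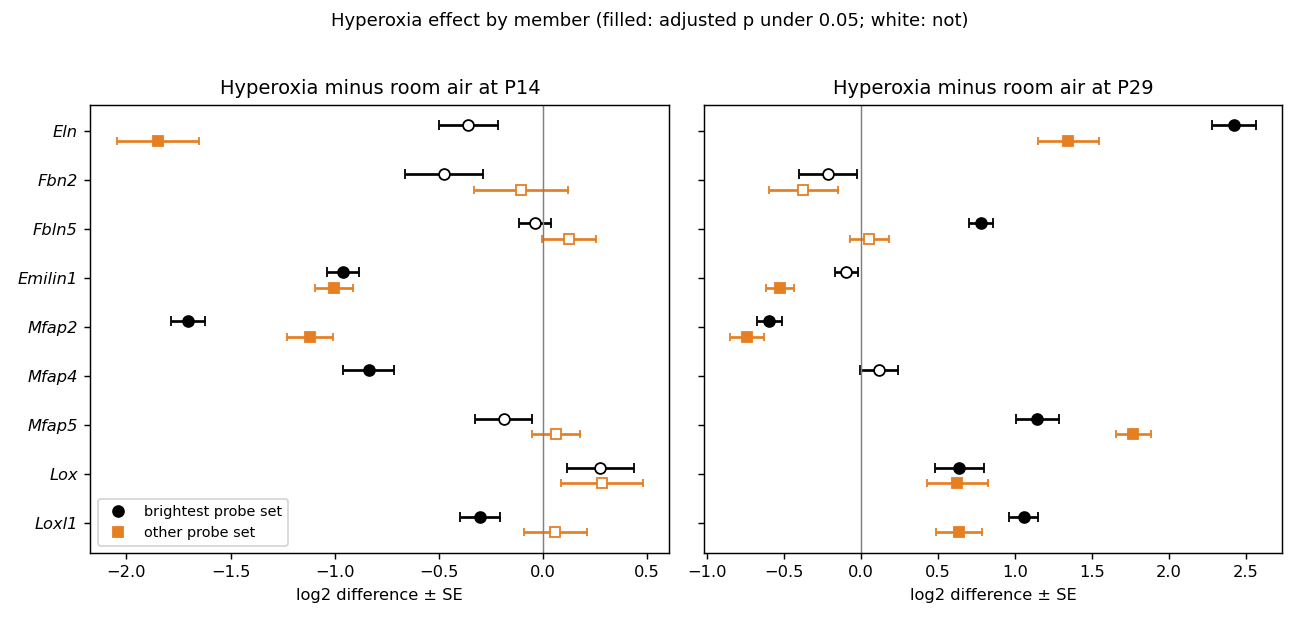
Hyperoxia minus room air in log2 units with the SE of the fitted difference, for each measured gene at P14 (left) and P29 (right). Circles are lead probe sets and squares other probe sets, filled where the adjusted p was under 0.05. The P14 points of Eln lie apart, at -0.36 and -1.85, while both Mfap2 points are negative at both ages.

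Across the 8 members with another probe set that passed the filter, the sign of the hyperoxia difference was the same on both probe sets for 5 at P14 and for 8 at P29. The 3 exceptions at P14 were Fbln5, Mfap5 and Loxl1, and in 0 of them were both probe sets called. The difference between the ages had the same sign on both for 6 of 8, with Fbn2 (-0.27) and Fbln5 (-0.07) opposite on the other probe set. For Mfap2 (0.38 ± 0.16) and Loxl1 (0.58 ± 0.21) the other probe set was not called in that test (adjusted p = 0.135 and 0.0946). The third probe set of Lox, at 3.47 to 3.88, was below the filter. When the actin control difference entered the model as a term, 3 genes were called lower at P14 (Mfap2, Emilin1 and Mfap4), against 3.86% of all genes under that term. At P29 4 were called higher (Eln, Mfap5, Loxl1 and Fbln5) and 0 lower, against 10.9% and 8.52%. The calls lost were those of Loxl1 at P14 (-0.61, adjusted p = 0.0733) and of Mfap2 and Lox at P29 (Lox 0.77, adjusted p = 0.154). The Eln rise at P29 was then 2.34 (adjusted p = 0.00231), and the Mfap2 fall at P14 was 1.62 (adjusted p = 0.00314). The actin difference did not overlap between hyperoxia and room air, so this term cannot separate RNA quality from hyperoxia.

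Fewer genes of the group were lower at P29 than at P14 in hyperoxia than in room air. In hyperoxia 4 of 9 genes fell with age and 1 rose, against 11.7% of all genes tested that were lower and 15.4% that were higher. In room air 7 of 9 fell and 0 rose, against 19.1% and 22.2%. These comparisons use the same arrays as those of hyperoxia with room air, and the test of their difference is the one given above for the hyperoxia effects. The age difference of Eln, P29 minus P14, was -0.24 ± 0.13 in hyperoxia (adjusted p = 0.204), and in room air Eln was 8.11-fold lower at P29 (-3.02 ± 0.16, adjusted p = 1.62e-07). The other probe set of Eln gave -0.35 ± 0.18 in hyperoxia and -3.54 ± 0.22 in room air. The lowest Eln values of the series were therefore those of P29 room air, and the P29 hyperoxia values lay just below those of P14 hyperoxia.

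Loxl1 and Mfap4 also passed the test for a fall with age in room air and not in hyperoxia. The Loxl1 difference was -0.17 ± 0.09 in hyperoxia and -1.53 ± 0.10 in room air (adjusted p = 0.181 and 9.20e-07). That of Mfap4 was -0.25 ± 0.11 in hyperoxia and -1.21 ± 0.14 in room air (adjusted p = 0.117 and 3.23e-05). Fbln5, Emilin1 and Mfap2 fell under both exposures. The fall of Fbln5 was 0.37 ± 0.07 in hyperoxia and 1.18 ± 0.08 in room air, that of Emilin1 0.59 ± 0.07 in hyperoxia and 1.45 ± 0.08 in room air, and that of Mfap2 1.14 ± 0.07 in hyperoxia and 2.25 ± 0.09 in room air.

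Fbn2 fell under both exposures, with differences of -2.98 ± 0.17 in hyperoxia (adjusted p = 1.06e-06) and -3.24 ± 0.21 in room air (adjusted p = 5.52e-07). Its P29 values, 4.77 to 5.06 in hyperoxia and 4.86 to 5.44 in room air, lay near the filter level of 5 and were not shown to be above background, so the size of the fall is not given as a fold. Mfap5 was the 1 gene called higher with age, by 1.30 ± 0.12 in hyperoxia (adjusted p = 3.36e-05), and its room-air difference of -0.03 ± 0.15 was not called. On the other probe set of Mfap5 the room-air difference was a called fall (-0.56 ± 0.13, adjusted p = 0.00581). Lox passed the test under neither exposure (0.23 ± 0.14 in hyperoxia and -0.13 ± 0.18 in room air). Without P29 room air replicate 1 the Lox difference in room air was -0.49. The difference in hyperoxia (0.23) does not use the P29 room-air arrays, and leaving out 1 of them changed only the estimate of the spread.

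**Figure D3:**
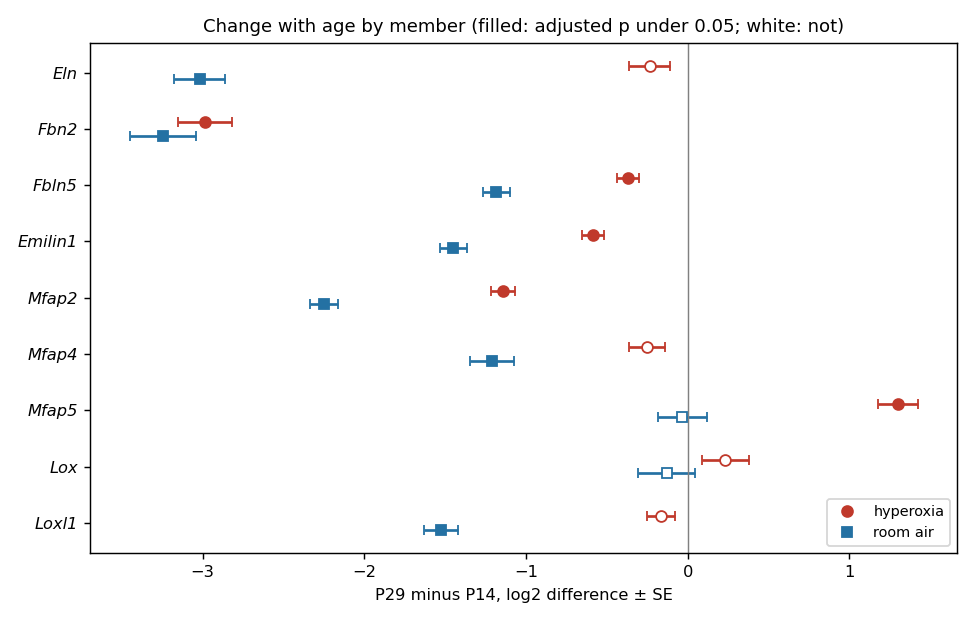
P29 minus P14 in log2 units with the SE of the fitted difference, for the lead probe set of each measured gene. Circles are hyperoxia and squares room air, filled where the adjusted p was under 0.05. Fbn2 lies near -3 under both exposures, Eln near -3 in room air, and Mfap5 at 1.30 in hyperoxia.

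Sex-linked transcripts differed between the P29 groups and between the ages, so the female P29 hyperoxia array, replicate 2, was set beside the 2 female room-air arrays. On it Eln was at 12.96, Mfap5 at 11.03, Loxl1 at 11.37, Fbln5 at 12.08 and Lox at 11.56, each above both P29 room-air arrays, and Mfap2 at 9.34 was below both. The P29 arrays of these genes did not overlap, so any hyperoxia array would give this order. It is therefore no separate check on sex. Of the members not called at P29, Emilin1 at 8.32, Fbn2 at 4.77 and Mfap4 at 12.77 were below both room-air arrays. With the mean of Y-linked genes as a term, the Eln rise at P29 was 2.34 (adjusted p = 1.19e-05), and its fall with age in room air was 2.90 (adjusted p = 1.97e-05). Age and sex cannot be told apart in room air, where both P14 arrays carried Y-linked transcripts and both P29 arrays had the female pattern. The Y-linked term rested mainly on the spread among the P29 hyperoxia arrays. At P14 that term gave 6 genes lower, with Eln (-0.38, adjusted p = 0.0499) and Fbn2 (-0.53, adjusted p = 0.0335) added, against 22.4% of all genes.

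Other genes of elastic fibre building moved in both directions. Of 29 companion genes (latent TGF-beta binding proteins, other fibulins and EMILINs, further lysyl oxidases, proteoglycans, processing enzymes and integrins), 26 were measured. At P14 11 were higher and 10 lower, with a median of 0.06, and at P29 11 were higher and 5 lower, with a median of 0.18 (all genes 0.04 at both ages). Among all genes tested 32.3% were higher and 22.8% lower at P14, and 34.2% and 25.6% at P29. Without P14 room air replicate 1 only 6 were higher at P14, and without P29 room air replicate 1 only 3 were lower at P29.

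At P29 the binding proteins for latent TGF-beta parted. Ltbp4, which promotes deposition of elastin with fibulin-5, averaged 9.25 ± 0.06 in P29 hyperoxia (SD, n = 3) and 10.74 ± 0.035 in P29 room air (SD, n = 2), by limma a fall of 1.49 ± 0.08 (adjusted p = 2.06e-07). Ltbp2, which also binds fibulin-5, averaged 12.04 ± 0.14 in P29 hyperoxia and 10.39 ± 0.02 in P29 room air, a rise of 1.64 ± 0.13. Its P14 difference was 0.02 ± 0.13, and the effects at the ages differed by 1.62 ± 0.19 (adjusted p = 0.000164). Adamtsl2, an ADAMTS-like protein that binds fibrillin and latent TGF-beta binding protein, rose by 1.55 ± 0.14, and Mfap3l, named for similarity to a microfibril-associated protein, by 1.08 ± 0.10 (0.68 and 0.05 on other probe sets). Emilin2 fell by 1.16 ± 0.11.

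Of the 5 companions of smallest p at P14, 4 were higher. Efemp1, fibulin-3, averaged 10.36 ± 0.06 in P14 hyperoxia and 9.51 ± 0.10 in P14 room air. Decorin, Dcn, a small proteoglycan of collagen and microfibrils, averaged 11.27 ± 0.19 in P14 hyperoxia and 10.09 ± 0.07 in P14 room air. Both rose at P14 and fell at P29 (-0.28 ± 0.09 for Efemp1 and -0.53 ± 0.13 for Dcn), and the P29 effect lay below the P14 effect for both (adjusted p = 0.000124 and 0.000126). Ltbp1 rose by 0.83 ± 0.09 at P14 (0.20 and 0.27 on other probe sets) and Mfap3l by 0.83 ± 0.10, while Adamts10, a protease that binds fibrillin, fell by 0.76 ± 0.10.

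Enzymes that cut elastin, and their inhibitors, were set beside the assembly genes. Of 22 genes listed 19 were measured. At P14 4 were higher and 6 lower, and at P29 4 were higher and 8 lower. The shares over all genes tested were 32.3% higher and 22.8% lower at P14, and 34.2% and 25.6% at P29. The lower counts at P14 were 3 without P14 room air replicate 1 or without P14 hyperoxia replicate 2, and the lower count at P29 was 4 without P29 room air replicate 1. Timp1, a metalloproteinase inhibitor, was at 8.53 ± 0.12 in P14 hyperoxia and 7.32 ± 0.16 in P14 room air, and at 9.21 ± 0.12 in P29 hyperoxia and 7.27 ± 0.18 in P29 room air (rises of 1.21 ± 0.12 and 1.94 ± 0.12). Mmp2 and Mmp14, a gelatinase and its membrane-bound activator, rose at P29 by 1.14 ± 0.08 and 1.12 ± 0.10. Mmp14 fell by 0.31 ± 0.10 at P14, where its other probe sets gave -0.97 and 0.16. At P14 Mmp2 differed by -0.16 ± 0.08 and was not called, but its other probe set fell by 0.42 ± 0.08 (adjusted p = 0.00179). Mmp12, macrophage elastase, named after its values were seen, averaged 7.34 ± 0.05 in P29 hyperoxia and 6.03 ± 0.26 in P29 room air, a rise of 1.32 ± 0.17 (adjusted p = 8.75e-05).

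Mmp9, a gelatinase abundant in neutrophils, fell by 0.87 ± 0.15 at P14 and 1.19 ± 0.15 at P29. Serpina1b, an alpha-1-antitrypsin gene that inhibits neutrophil elastase, fell by 1.86 ± 0.17 and 2.09 ± 0.17, though near-identical copies of this gene may share its probes. Timp4 rose by 1.15 ± 0.26 at P14 and gave -0.09 on another probe set. The probe sets of Timp3 disagreed at P14, at 0.84 ± 0.09 on the lead and at -1.26, -0.26 and 0.16 on the others.

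**Figure D4:**
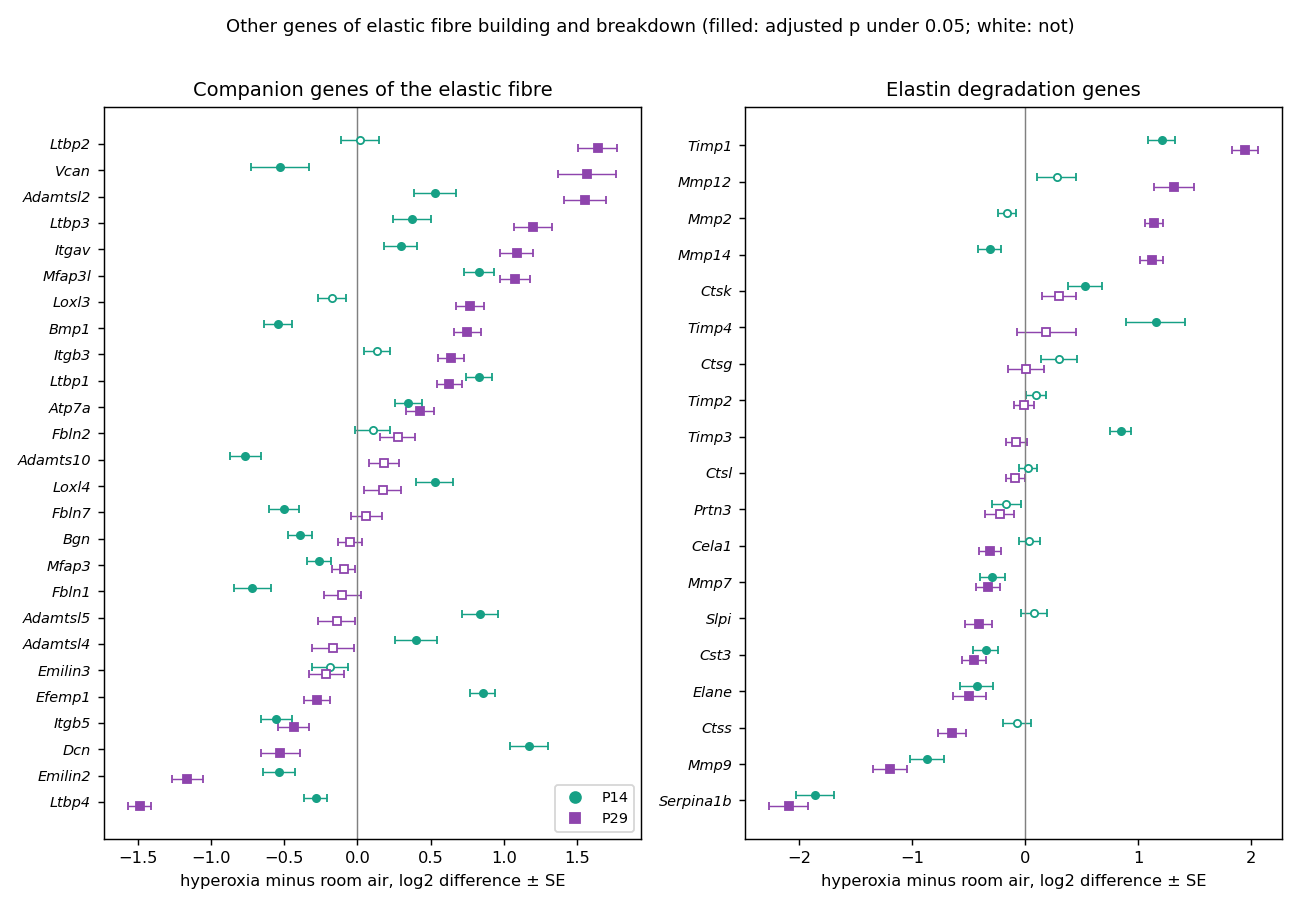
Hyperoxia minus room air in log2 units with the SE of the fitted difference, at P14 (circles) and P29 (squares), for 26 companion genes (left) and 19 genes of elastin degradation (right). Points are filled where the adjusted p was under 0.05. Ltbp2 and Ltbp4 lie at opposite ends at P29, at 1.64 and -1.49.

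Among markers of the cells that make elastic fibres, those of fibroblasts moved in part with the group. Of 10 fibroblast markers 0 were higher and 6 lower at P14, and 5 were higher and 3 lower at P29. For this and the smooth muscle list below, the shares over all genes tested were 32.3% higher and 22.8% lower at P14. At P29 they were 34.2% and 25.6%. The summed linear signal of the fibroblast list was 54814 to 56350 in P14 hyperoxia and 59353 to 61523 in P14 room air, and 44620 to 46612 in P29 hyperoxia and 31390 to 31913 in P29 room air. Pdgfra, the receptor that marks alveolar fibroblasts and the precursors of septal myofibroblasts, fell by 1.28 ± 0.11 at P14 and by 0.65 ± 0.11 at P29, whereas Col1a1, Col1a2 and Col3a1, the main fibrillar collagen chains, rose at P29 by 0.70 ± 0.11, 0.76 ± 0.08 and 0.77 ± 0.07 on the lead probe sets. The other Pdgfra probe sets gave -2.05 and -0.42 at P14, and -1.36 and -0.13 at P29, the last not called. Other collagen probe sets gave larger P29 rises, 2.99 for Col1a1, 2.22 for Col1a2 (0.71 on yet another) and 2.15 for Col3a1. At P14 those of Col1a1 (0.78, adjusted p = 0.00452) and Col1a2 (0.27, adjusted p = 0.0437) were called higher too, where no lead probe set of the list was. The further Col1a2 probe set gave -0.56 at P14 and was not called (adjusted p = 0.0775). Of 10 smooth muscle and myofibroblast markers 2 were higher and 1 lower at P14, and 1 was higher and 3 lower at P29. Acta2, smooth muscle actin, differed by 0.23 ± 0.15 and -0.23 ± 0.15 and was not called. The part of cell numbers in the elastic fibre values was not tested.

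Tissues next to the lung may be carried along in dissection, and their markers also differed. The counts below stand beside 32.3% of all genes tested that were higher and 22.8% lower at P14. At P29 these shares were 34.2% and 25.6%. Mesothelial markers were higher in 5 of 6 cases at P14, with a summed signal of 4242 to 4672 in hyperoxia and 3027 to 3247 in room air, and 1 was higher and 2 lower at P29 (3043 to 4103 in hyperoxia and 4490 to 5316 in room air). Of the 6 heart muscle markers 4 were higher and 0 lower at P14 (9330 to 10448 in hyperoxia and 5700 to 6680 in room air), and 1 was higher and 3 lower at P29 (6863 to 11481 in hyperoxia and 11601 to 14559 in room air). Cartilage markers summed to 358 to 394 in P14 hyperoxia and 403 to 444 in P14 room air, and to 456 to 517 in P29 hyperoxia and 849 to 1035 in P29 room air, where 5 of the 5 that passed the filter were lower in hyperoxia. Of 6 endothelial markers 1 was higher and 2 lower at P14, and 0 higher and 4 lower at P29, and of 9 lung epithelial markers 1 was higher and 3 lower at P14, and 0 higher and 6 lower at P29. Skeletal muscle markers summed to 362 to 541 over all arrays. Their part in the results was not tested.

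The genes whose centred profile over the 10 arrays lay closest to that of the Eln lead probe set were Wnt5a, 1500009L16Rik, Ube2c, Cdk1 and Fstl1, with a root mean square distance of 0.21 to 0.31 on the log2 scale. Wnt5a, a secreted signal of lung mesenchyme, averaged 8.73 in P14 hyperoxia and 8.71 in P14 room air, and 8.19 in P29 hyperoxia and 6.11 in P29 room air. Among the other members Loxl1 was closest, at 0.58, followed by Fbln5 at 0.68, and Fbn2 was farthest, at 1.27. By this distance Loxl1 ranked 156, Fbln5 287 and Fbn2 12633 among all genes tested, so many genes outside the members lay closer to Eln.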

How the data were processed

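Lung RNA of 10 samples was hybridised as biotin-labelled cRNA to Affymetrix arrays. The authors deposited log2 expression values per probe set, and the submitters' processing notes name Partek 6.4 and GCRMA (a background correction and summary method), with settings not given in the sources used here. Groups and replicate numbers came from the titles. Of 45101 probe sets, 34958 were annotated with 1 gene symbol and 932 with several, and only those with 1 symbol were used. A gene took its probe set of highest mean and was kept where 2 arrays or more reached log2 5. Group means were fitted with limma 3.58.1 in R 4.3.3 (lmFit, eBayes; 6 residual and 5.09 prior degrees of freedom), two-sided, with Benjamini-Hochberg adjustment over 14988 genes and a threshold of 0.05. Other probe sets came from a fit of all probe sets with 1 symbol. Errors are SE of the fitted difference unless given as SD. The fit was tested on simulated data. Members, lists and tests were chosen with earlier results of these data known. Genes named outside the members were up to 5 of smallest p per list and comparison, the 5 closest to Eln, and cell markers chosen after their values were seen. Alternatives were other probe set choices, filters, 2 scalings, a trend with robust fit, fits of the compared groups, array weights, a replicate block, actin and Y-linked terms, and leaving out each array.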

Additional observations from a re-analysis of the deposited data

Results flagged for a closer look

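For 7 genes the effect of hyperoxia differed between P29 and P14 by the interaction test of the limma fit (adjusted p from 1.16e-05 to 0.00286). The P29 effect minus the P14 effect was 2.78 ± 0.20 (SE) for Eln, 1.36 ± 0.14 for Loxl1, 1.34 ± 0.19 for Mfap5, 1.11 ± 0.11 for Mfap2, 0.96 ± 0.18 for Mfap4, 0.86 ± 0.11 for Emilin1 and 0.82 ± 0.11 for Fbln5. For Mfap2 the effects were negative at both ages, so the positive value means a smaller fall at P29. Groups of 2 or 3 arrays are too small for a test of single outlying arrays.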

How the results depend on the processing

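Over 13 alternatives for 45 results of the elastic fibre genes, 533 of 576 values kept their direction and their side of the threshold, 7 lost the call, 23 gained one and 13 changed sign. Leaving out each array gave 428 of 450 kept, 4 lost, 11 gained and 7 with another sign. The causes were not tested. Members higher at P14 numbered 1 in the fit of the compared groups, against 4716 of 14988 genes (0 to 1 without 1 array). Members lower at P29 numbered 2 with the mean of all probe sets, the second-brightest probe set, quantile normalization or the 75th percentile. The second-brightest probe set was an alternative chosen after seeing the data. Over all genes, those lower numbered 4058 of 14472, 3946 of 13657, 4134 of 14988 and 5479 of 14988, in that order. With the actin term 0 members were lower at P29, against 1277 of 14988 genes. With the second-brightest probe set 4 members had a higher effect at P29 than at P14, against 1026 of 13657 genes. Members higher with age in hyperoxia numbered 2 in the fit of the compared groups, against 2459 of 14988 genes (1 to 2 without 1 array).

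The alternatives for the companion and degradation lists were partly added after seeing the data. With the actin term the companions numbered 4 higher and 3 lower at P14 and 6 higher at P29, and degradation genes 1 higher and 1 lower at P14, 1 lower at P29 and 1 lower in the difference between ages (also 1 with quantile normalization). Without 1 array the companions ranged from 6 to 13 higher at P14 and 3 to 6 lower at P29, and degradation genes from 3 to 6 lower at P14, 4 to 8 lower at P29 and 1 to 4 lower in the difference. Over all genes the actin term gave 812 higher and 579 lower at P14, against 4838 and 3412 without it, and 1628 higher and 1277 lower at P29, against 5119 and 3831.

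Signs changed mostly for differences near 0. The Fbn2 difference between ages was -0.0049 with the mean of probe sets and -0.27 with the second-brightest, and ranged from -0.0481 to 0.57 without 1 array. Its P29 effect ranged from -0.50 to 0.0762 without 1 array. The Fbln5 P14 effect was 0.0436 with the mean and 0.12 with the second-brightest probe set, and ranged from -0.0758 to 5e-04 without 1 array. Its difference between ages was -0.0717 with the second-brightest. The Mfap4 P29 effect was -0.0124 after 75th-percentile scaling, -0.0885 with the actin term and -0.1037 with the Y-linked term. The Mfap5 P14 effect was 0.0622 with the probe set of largest variance, which is its second-brightest. Its age difference in room air was -0.56 with that probe set (adjusted p = 0.00595), 0.0434 with the Y-linked term and ranged from -0.28 to 0.21 without 1 array. That of Lox ranged from -0.49 to 0.23. With the second-brightest probe set Loxl1 was 0.0605 at P14 and 0.0035 with age in hyperoxia.

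Deviations of same-numbered arrays of different groups from their group means correlated at -0.093 to 0.197. Whether the numbers pair the samples cannot be told from this, because in a group of 2 arrays the deviations mirror each other. With the replicate number as a block, 5 members were lower at P14, Eln among them (-0.42, adjusted p = 0.0304). At P29 5 were higher and 1 lower, and 7 had a higher effect at P29 than at P14. Of all 14988 genes the block gave 3388 lower at P14, and 4935 higher and 3848 lower at P29. A higher effect at P29 than at P14 was called for 1577.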
